A study of Danio rerio with 9 samples.

Results

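The 9 genes described here belong to the surface and the cell contacts of epithelia. They are the gel-forming mucin genes muc5.1 and muc5.2, the adhesion genes epcam and cdh1, the polarity gene crb3b, and the tight junction genes oclna, oclnb, cldne and cldni. They were chosen by name, as genes that were scarce in one of the 3 sorted cell populations of the series. All 9 matched a single gene ID of the 32266 in each count file, and all 9 were among the 19039 genes with enough counts to be tested. RNA was sequenced from cells of the notochord sheath, which wraps the vacuolated cells inside the notochord, taken from EK zebrafish 13 days old. Fluorescence-activated sorting gave double-positive cells (reporters for both col9a2 and entpd5a), entpd5a+ cells and col9a2+ cells, with 3 libraries of each. All 3 populations come from transgenic fish according to the design text, whereas every genotype label reads wild type, and neither names the transgenes' promoters, any clone, or the animals behind each library. The replicates may therefore be technical, and p values measure only the spread between these libraries.

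Epithelial cells are joined side by side by tight junctions, which seal the gap between cells, and below them by adherens junctions, which hold the cells together. Claudins form the strands of the tight junction and occludins lie in them, while E-cadherin, the product of cdh1, is the adhesive protein of the adherens junction. Crumbs proteins mark the apical side of the cell, and gel-forming mucins are secreted from that side by goblet and other mucous cells. In fish the skin is a layered epithelium with mucous cells and ionocytes among its keratinocytes. The notochord sheath is itself a keratin-rich epithelium with a basement membrane. The per-library question for these genes is whether they follow markers of the sheath or markers of skin and mucous cells that could be present in a sort.

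The libraries held between 39955994 and 81471212 counts and detected between 17850 and 21996 genes. A group of 4 deeper libraries (double-positive 3, entpd5a+ 2 and 3, and col9a2+ 3) had at least 67788360 counts, and the other 5 had at most 46708240. Levels of hsp70l, a heat shock gene, were between 17961 and 27157 CPM (counts scaled to the normalised library size) in the 4 deeper libraries and between 277 and 909 CPM in the 5 shallower ones, so depth and this transcript differ between libraries of the same population. Double-positive library 1 also stood apart, in endothelial genes: kdrl reached 62.0 CPM there and cdh5 reached 67.3 CPM. The sort genes followed the labels: COL9A2 had 811, 1580 and 1426 CPM in double-positive libraries, 429, 73.1 and 64.7 CPM in entpd5a+ libraries, and 7738, 11559.7 and 9398 CPM in col9a2+ libraries. ENTPD5 had 10369.8, 18679 and 13084 CPM in double-positive libraries, 5678, 3955 and 3142 CPM in entpd5a+ libraries, and 253, 452 and 129 CPM in col9a2+ libraries.

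Because the members were picked for low values in double-positive cells, their differences between double-positive and the other cells are a description and carry no test. Members were tested between entpd5a+ and col9a2+ cells, a contrast that the choice did not name but that shares its col9a2+ libraries with the contrast that guided the choice. Such a choice can favour genes high in those col9a2+ libraries. The test was edgeR's quasi-likelihood test on counts, with p values adjusted over all 19039 genes by the Benjamini-Hochberg method and a call at an adjusted p under 0.05. Levels below are CPM in libraries 1, 2 and 3 of a population in that order, and differences are log2 values ± standard error.

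The mucin genes had the widest range of the 9. In double-positive libraries muc5.2 (ENSDARG00000058556) had 1.41, 2.91 and 2.42 CPM, in entpd5a+ libraries 61.7, 16.6 and 0.0759 CPM, and in col9a2+ libraries 2781, 2264 and 749 CPM. Every col9a2+ library lay above every other library, and entpd5a+ library 3, with 5 counts of muc5.2, lay below all double-positive libraries. Its neighbour muc5.1 (ENSDARG00000070331) had 0.268, 0.26 and 0.103 CPM in double-positive libraries, 11.7, 0.775 and 0 CPM in entpd5a+ libraries, and 626, 316 and 81.5 CPM in col9a2+ libraries. Both mucin genes were highest in library 1 and lowest in library 3 of the entpd5a+ and the col9a2+ population. Between entpd5a+ and col9a2+ cells the log2 difference was -6.21 ± 1.63 for muc5.2 (adjusted p = 0.0617) and -6.37 ± 1.77 for muc5.1 (adjusted p = 0.0766), and neither passed the test although no libraries overlapped. Leaving out entpd5a+ library 3 gave -5.68 for muc5.2 (adjusted p = 0.0135), and leaving out entpd5a+ library 1 gave -9.74 for muc5.1 (adjusted p = 0.0169). Of the 9 single omissions these alone passed, 1 for each gene. The adjusted p in the others reached 0.207 for muc5.2 and 0.221 for muc5.1. With a term for depth muc5.1 passed (adjusted p = 0.0154) and muc5.2 did not (adjusted p = 0.052), and DESeq2 called both, with adjusted p = 0.00483 for muc5.1 and 4.03e-06 for muc5.2. In sorted bulk samples such as these, fewer cells of a type and less RNA per cell cannot be told apart. The RefSeq table for GRCz12tu places the 2 mucin genes side by side, and whether they share reads was not traced.

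**Figure D1:**
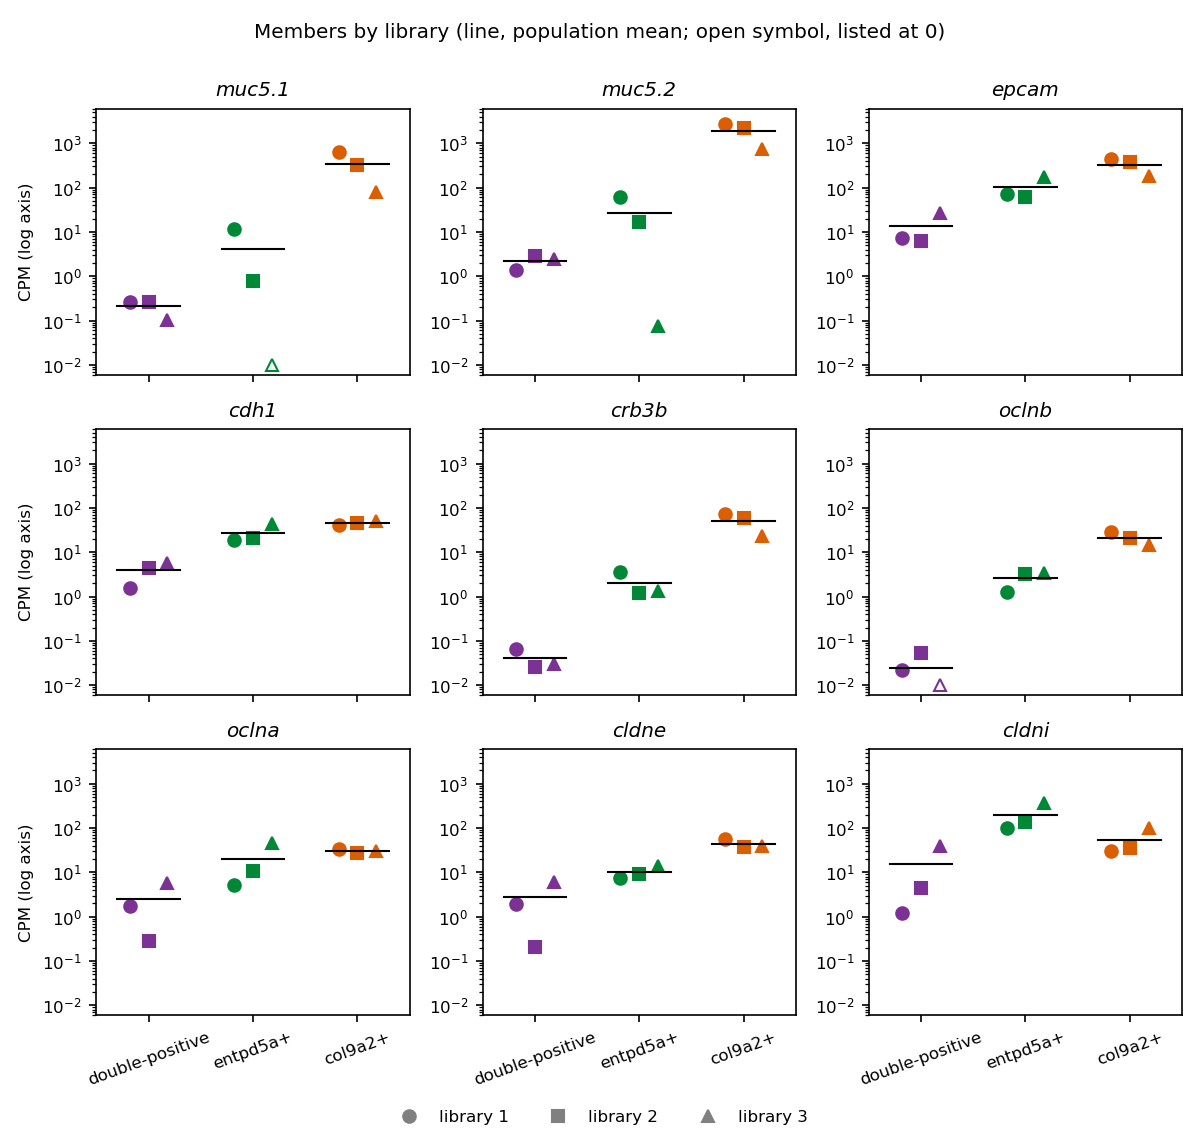
CPM (log axis) of the 9 genes in each library of the double-positive, entpd5a+ and col9a2+ populations, with a symbol per library and a line at the population mean; an open symbol marks a library at 0 counts, drawn at 0.01. The mucin genes, crb3b and oclnb stand highest in col9a2+ libraries, while cldni stands highest in entpd5a+ libraries.

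The adhesion genes were not confined to col9a2+ cells. epcam (ENSDARG00000040534), which encodes an epithelial cell adhesion molecule, had 7.18, 6.37 and 27.1 CPM in double-positive libraries, 73.2, 60.8 and 172 CPM in entpd5a+ libraries, and 439, 369.7 and 185 CPM in col9a2+ libraries. The 3 populations did not overlap, but entpd5a+ library 3 came close to col9a2+ library 3. The log2 difference between entpd5a+ and col9a2+ cells was -1.70 ± 0.65 and did not pass the test (adjusted p = 0.206). cdh1 (ENSDARG00000102750), the E-cadherin gene, had 1.59, 4.5 and 5.69 CPM in double-positive libraries, 18.8, 21.1 and 43.1 CPM in entpd5a+ libraries, and 40.7, 46.5 and 49.3 CPM in col9a2+ libraries. Its entpd5a+ and col9a2+ libraries overlapped, with a log2 difference of -0.72 ± 0.48 (adjusted p = 0.544).

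The polarity gene crb3b (ENSDARG00000068182) encodes a small Crumbs protein of the apical membrane. It fell to 3.54, 1.2 and 1.32 CPM in entpd5a+ libraries, against 72.3, 58.2 and 23.7 CPM in col9a2+ libraries. That is a log2 difference of -4.68 ± 0.62, or 25.5-fold lower (adjusted p = 0.00425). The call was kept without each of the 9 libraries in turn, with adjusted p between 0.0038 and 0.0228, and the difference was -5.35 without entpd5a+ library 1. In double-positive libraries crb3b had 3, 1 and 2 counts (0.0671, 0.026 and 0.0295 CPM), at or under the limit of 3 counts that a count of 0 allows, so its level there was at the edge of detection. Of the 9 genes crb3b had the profile most like the mean of the other members over the 9 libraries, with r = 0.98, and cldni the profile least like it, with r = 0.45. These libraries include the double-positive ones, where low values were the ground of choice, and a shared fall there alone can make r high. Nothing is therefore read from these r values.

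Among the occludin genes, oclnb and oclna differed in pattern. oclnb (ENSDARG00000003091) had 1, 2 and 0 counts in double-positive libraries (0.0224, 0.052 and 0 CPM), against 28.3, 20.5 and 14.8 CPM in col9a2+ libraries. Summed over libraries, col9a2+ cells held 992-fold more oclnb than double-positive cells, with an exact 95% interval of 339 to 4812 that covers counting error only. In entpd5a+ libraries oclnb fell to 1.28, 3.25 and 3.32 CPM, 8.07-fold lower than in col9a2+ libraries (log2 difference -3.01 ± 0.66, adjusted p = 0.0294). That call was lost without any one of the 6 libraries compared (entpd5a+ 1, 2 or 3 and col9a2+ 1, 2 or 3), with log2 differences between -3.25 and -2.69 and adjusted p between 0.0546 and 0.129. oclna (ENSDARG00000005108) had 1.77, 0.286 and 5.68 CPM in double-positive libraries, 5.22, 10.6 and 45 CPM in entpd5a+ libraries, and 34.6, 26.8 and 31.2 CPM in col9a2+ libraries. Its highest library was entpd5a+ 3, and the entpd5a+ and col9a2+ libraries overlapped, with a log2 difference of -0.61 ± 0.94 (adjusted p = 0.835).

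The claudin genes pointed opposite ways between entpd5a+ and col9a2+ cells, but neither passed the test. cldne (ENSDARG00000043128) had 1.99, 0.208 and 6.18 CPM in double-positive libraries, 7.68, 9.19 and 14.2 CPM in entpd5a+ libraries, and 56.2, 38.1 and 40.03 CPM in col9a2+ libraries. Its populations did not overlap, and the log2 difference between entpd5a+ and col9a2+ cells was -2.11 ± 0.84 (adjusted p = 0.229). This difference passed only without double-positive library 2 (adjusted p = 0.0448) and in a fit of the 6 libraries compared (adjusted p = 0.019). cldni (ENSDARG00000054616) had 1.19, 4.42 and 40.4 CPM in double-positive libraries, 102, 137 and 362 CPM in entpd5a+ libraries, and 30.1, 35.3 and 98.7 CPM in col9a2+ libraries. All entpd5a+ libraries lay above all others, double-positive library 3 lay above the lower col9a2+ libraries, and the log2 difference between entpd5a+ and col9a2+ cells was 1.87 ± 1.08 (adjusted p = 0.452). cldni was the only one of the 9 genes whose double-positive and col9a2+ libraries overlapped, so low values in double-positive cells hold for it library by library against entpd5a+ cells alone. In the RefSeq table cldni overlaps coro1a, a protein-coding gene, cdh1 overlaps another coding locus, and muc5.1 and oclna each overlap a long noncoding RNA. These are overlaps of whole gene spans in GRCz12tu, whereas the counts were made on GRCz10, and exons were not compared. The strand setting of the counting is not given in the sources used here, so whether such pairs share counted reads is not known.

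**Figure D2:**
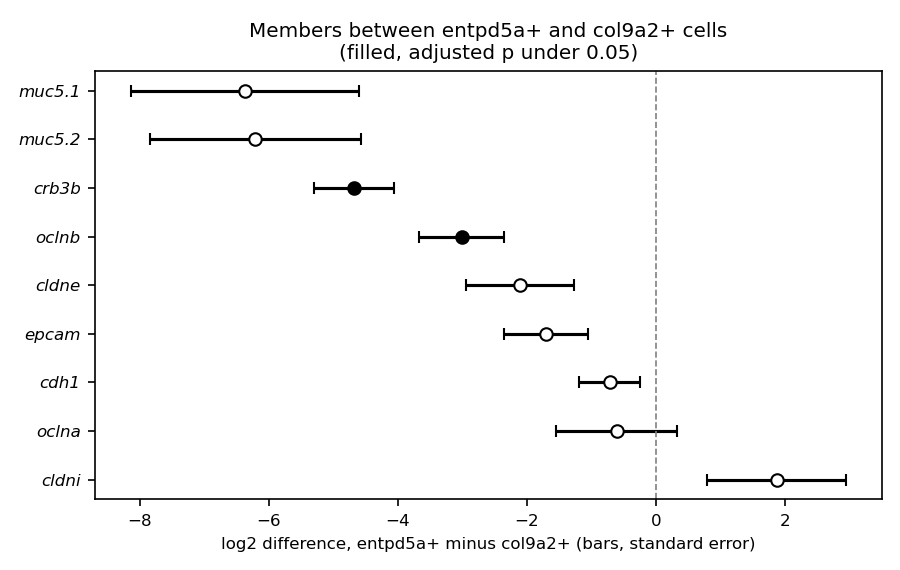
Log2 difference (entpd5a+ minus col9a2+) of the 9 genes from the edgeR fit over 19039 genes, with bars for the standard error and filled symbols at an adjusted p under 0.05. Only crb3b and oclnb are filled, 8 genes lie below 0, and cldni lies above at 1.87.

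Between entpd5a+ and col9a2+ cells 2 of the 9 genes fell and none rose, where the test called 5.02% of all 19039 genes, 2.34% lower and 2.68% higher. Without a library at a time, between 1 and 3 members were called, and only crb3b was left as a call without col9a2+ library 1, 2 or 3 or entpd5a+ library 2. The median log2 difference was -2.11 over the 9 genes and 0.02 over all genes tested. Libraries did not overlap for 6 members that were lower and 1 that was higher, where 24.7% of all genes were so separated, 12.2% lower and 12.4% higher. The choice shared the col9a2+ libraries and can favour genes high in them. Nothing is therefore read from the common direction of the calls, the median and these counts. Mean levels in entpd5a+ cells, as a percentage of those in col9a2+ cells, ran from 1.22% for muc5.1 and 1.35% for muc5.2 through 3.93% for crb3b and 12.4% for oclnb to 60.7% for cdh1, 65.7% for oclna and 366% for cldni. The differences between members in this order were not tested.

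Within the depth groups, which were compared after the data were seen, the direction of all 9 members was the same as in the fit of 9 libraries. In the 5 shallower libraries alone the log2 difference was -4.22 for crb3b (adjusted p = 0.0422), -5.36 for muc5.2 (adjusted p = 0.0422), -5.35 for muc5.1 (adjusted p = 0.041), -2.48 for epcam (adjusted p = 0.0483) and -4.26 for oclnb (adjusted p = 0.061). Here entpd5a+ has 1 library, which is assumed to vary like the others. In the 4 deeper libraries alone col9a2+ has 1 library, under the same assumption, and missed calls there say nothing about stability. No member passed in that fit: the log2 difference was -4.22 for crb3b (adjusted p = 0.0622), -6.48 for muc5.2 (adjusted p = 0.315), -7.67 for muc5.1 (adjusted p = 0.143), -0.66 for epcam (adjusted p = 0.803) and -2.16 for oclnb (adjusted p = 0.227). Whether the differences differ between the depth groups was not tested. In the fit of the deeper libraries 5 members had an unadjusted p under 0.05.

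Toward double-positive cells the values describe what the genes were chosen for. Mean levels in double-positive cells were between 0.0617% (muc5.1) and 28.1% (cldni) of those in col9a2+ cells, and between 0.947% (oclnb) and 26.9% (cldne) of those in entpd5a+ cells. The median log2 difference of the 9 genes was -4.61 between double-positive and col9a2+ cells and -3.54 between double-positive and entpd5a+ cells. Against col9a2+ libraries 8 members did not overlap and were lower. Of all genes tested 24.4% did not overlap there, 13.1% lower and 11.3% higher. Against entpd5a+ libraries 6 members did not overlap and were lower, where 26.1% of all genes did not overlap, 14.3% lower and 11.8% higher. Nothing is read from these counts, since low values here were the ground of choice. The double-positive libraries differed among themselves in a way that the choice did not fix. Library 3 was the highest of the 3 for epcam, cdh1, oclna, cldne and cldni, with a ratio of highest to lowest library of 4.25 for epcam, 3.58 for cdh1, 19.8 for oclna, 29.7 for cldne and 34.1 for cldni. For muc5.1 library 3 was the lowest, and for muc5.2 it lay between the other libraries.

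Markers of mucous cells were then set beside the mucin genes, library by library. The disulfide isomerase gene AGR2, needed for mucin folding in mouse gut, had 4.36, 8.17 and 15.1 CPM in double-positive libraries, 93.3, 21.6 and 5.25 CPM in entpd5a+ libraries, and 2867, 2422 and 744 CPM in col9a2+ libraries. It fell by 7.77 ± 1.23 in double-positive relative to col9a2+ cells (adjusted p = 0.0102), a call kept without each library in turn. In entpd5a+ relative to col9a2+ cells it fell by 5.65 ± 1.11 (adjusted p = 0.019). With entpd5a+ library 1 left out it fell by 7.22. That call was lost without col9a2+ library 1, col9a2+ library 2 or entpd5a+ library 2 (adjusted p between 0.0517 and 0.089). For each count of muc5.2 there were 3.1, 2.8 and 6.23 counts of AGR2 in double-positive libraries, 1.51, 1.3 and 69.2 in entpd5a+ libraries, and 1.03, 1.07 and 0.993 in col9a2+ libraries. The ratio was thus near 1 in every col9a2+ library while muc5.2 itself varied 3.71-fold between them, and it departed most in entpd5a+ library 3, which held 5 counts of muc5.2.

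The mucous-cell list was highest in col9a2+ libraries, while its sums in double-positive and entpd5a+ libraries overlapped. Of its 17 genes 12 matched the name table and 10 were tested. Their summed level lay between 99.6 and 281 CPM in double-positive libraries, between 209.9 and 269 CPM in entpd5a+ libraries, and between 1185 and 3360.4 CPM in col9a2+ libraries, with AGR2 as the largest part in col9a2+ cells. Relative to col9a2+ cells, 3 of the 10 fell and none rose in double-positive cells, and likewise 3 fell and none rose in entpd5a+ cells. Of all genes the test called 3.54% and 5.02% in these comparisons, in that order. The list's median log2 difference was -2.41 between double-positive and col9a2+ cells and -1.91 between entpd5a+ and col9a2+ cells, against 0.01 and 0.02 over all genes. In double-positive relative to entpd5a+ cells 1 gene rose and 1 fell, with a median of -0.65, where 6.51% of all genes were called. CREB3L1, a membrane-bound transcription factor of secretory cells, fell by 2.31 ± 0.33 in double-positive relative to col9a2+ cells (adjusted p = 0.00697). It did not follow the mucins in entpd5a+ libraries, where its 143, 145 and 166 CPM overlapped the 184, 278 and 155 CPM of col9a2+ libraries. The log2 difference between entpd5a+ and col9a2+ cells was -0.44 ± 0.32 (adjusted p = 0.585). The goblet-cell factor SPDEF had 0, 0 and 0.56 CPM in double-positive libraries, 0.045, 0.266 and 0.273 CPM in entpd5a+ libraries, and 4.5, 5.64 and 3.11 CPM in col9a2+ libraries. SPDEF did not pass the test in either comparison with col9a2+ cells (adjusted p = 0.21 for double-positive and 0.197 for entpd5a+ cells), although no libraries overlapped. foxa3, a forkhead factor of gut endoderm and mucous cells, did not follow the mucins in double-positive cells: it had 50.02, 121 and 200.2 CPM in double-positive libraries, 18.8, 18.6 and 45.1 CPM in entpd5a+ libraries, and 207, 177 and 200.2 CPM in col9a2+ libraries. The part of mucous cells in the differences of the members was not tested.

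Markers of skin did not share a single pattern between libraries. TP63, the transcription factor of basal keratinocytes, had 0.716, 1.04 and 12.3 CPM in double-positive libraries, 7.54, 35.6 and 27.4 CPM in entpd5a+ libraries, and 8.24, 7.82 and 33.0 CPM in col9a2+ libraries. All populations overlapped for TP63, with log2 differences of -1.80 ± 1.08 between double-positive and col9a2+ cells (adjusted p = 0.479) and 0.52 ± 1.05 between entpd5a+ and col9a2+ cells (adjusted p = 0.877). The 4 deeper libraries held the highest TP63 levels of all 9. The keratin gene krt1-19e, a basal epidermal keratin, had 21.1, 17.7 and 255 CPM in double-positive libraries, 418, 620 and 710.1 CPM in entpd5a+ libraries, and 199.9, 275 and 876 CPM in col9a2+ libraries. Other skin genes were lowest in library 3 of the col9a2+ population, as the mucins were. The keratin gene si:rp71-1n18.1 had 0.895, 1.4 and 1.08 CPM in double-positive libraries, 6.06, 4.54 and 4.11 CPM in entpd5a+ libraries, and 35.1, 32.6 and 5.45 CPM in col9a2+ libraries. It fell by 4.44 ± 0.69 in double-positive relative to col9a2+ cells (adjusted p = 0.00975). The skin gene icn had 277, 252 and 67.2 CPM in double-positive libraries, 778, 161 and 111 CPM in entpd5a+ libraries, and 2151, 2378 and 317 CPM in col9a2+ libraries, and did not pass the test in any comparison. In both double-positive and col9a2+ cells library 3 was the highest for 22 skin genes, of 30 in double-positive and 29 in col9a2+ cells that had any count. Library 3 was likewise the highest for 5 of the 9 members in double-positive cells, but in col9a2+ cells only for cdh1 and cldni. This order was not particular to skin genes. Library 3 was also the highest for 9 of 12 gut, liver and pancreas genes in each of these 2 populations. For adherens junction and desmosome genes it was 13 of 18 in double-positive and 13 of 20 in col9a2+ cells. For sheath genes it was only 3 of 12 and 2 of 12, in that order. The share over all genes was not counted.

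Members were also expressed as counts for each count of TP63, a scaling chosen after the values were seen. cldni had 1.66, 4.25 and 3.3 counts for each TP63 count in double-positive libraries, 13.5, 3.86 and 13.2 in entpd5a+ libraries, and 3.65, 4.51 and 2.99 in col9a2+ libraries. Over all 9 libraries this ratio varied 8.13-fold, with cldni itself between 1.19 and 362 CPM. The ratio of krt1-19e to TP63 varied 3.24-fold, that of cdh1 12.8-fold, that of oclna 15.3-fold, that of epcam 31.2-fold and that of cldne 34.1-fold. The ratio of crb3b to TP63 varied 3639-fold and that of muc5.2 121661-fold, with 337, 289 and 22.7 counts of muc5.2 for each TP63 count in the col9a2+ libraries. epcam had 53.3 and 47.3 counts for each TP63 count in col9a2+ libraries 1 and 2, and between 1.71 and 10.03 in the other 7 libraries. These ratios describe single libraries, several of which held few counts (32 and 40 of TP63 in double-positive libraries 1 and 2), and the part of skin cells in the members' differences was not tested.

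**Figure D3:**
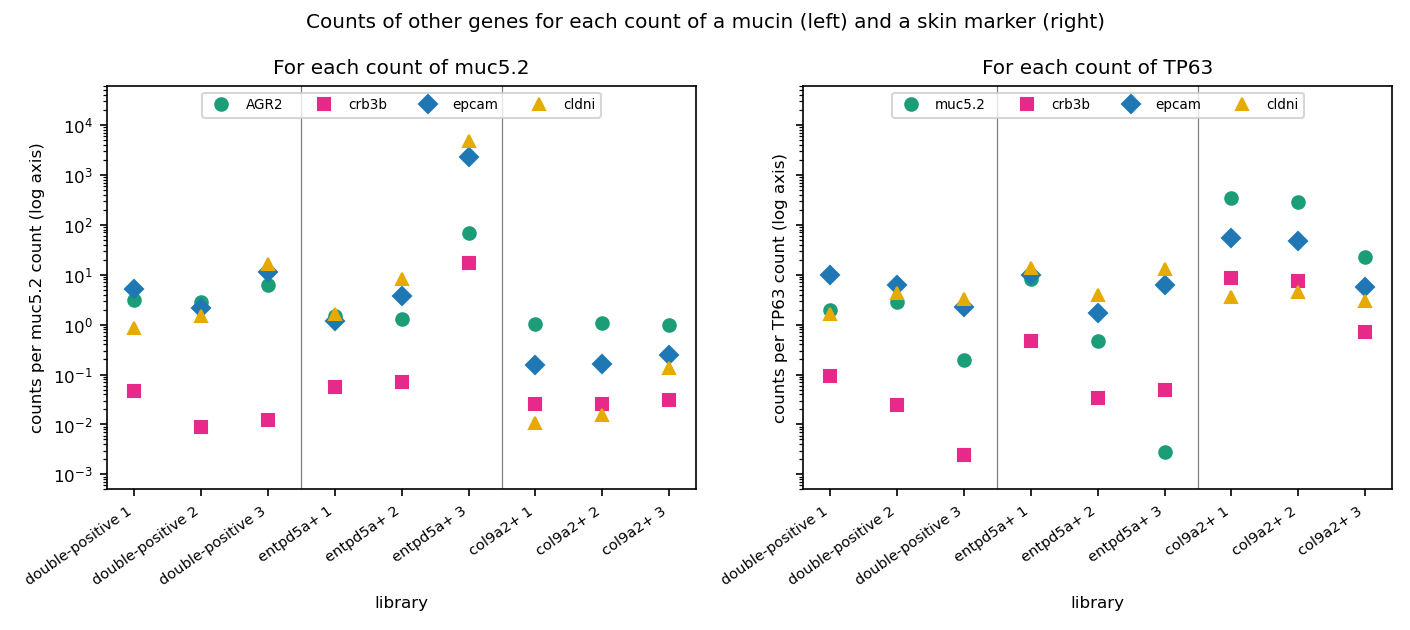
Counts of 4 genes for each count of muc5.2 (left) and for each count of TP63 (right) in the 9 libraries, on a log axis. AGR2 stays near 1 count for each muc5.2 count in the col9a2+ libraries, and cldni stays between 1.66 and 13.5 counts for each TP63 count in all 9.

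As a list, the 30 skin genes all matched and 29 were tested. In double-positive relative to col9a2+ cells 6 fell and 1 rose, with a median log2 difference of -2.55, and in entpd5a+ relative to col9a2+ cells 1 fell and none rose, with a median of -0.64. In double-positive relative to entpd5a+ cells 4 fell and 3 rose, with a median of -2.12. Of all 19039 genes the test called 3.54%, 5.02% and 6.51% in these comparisons, in that order. Between double-positive and col9a2+ cells the number of skin genes called was 7 in the fit of 9 libraries and 11 with the replicate block. It was 4 in refits without col9a2+ library 1, col9a2+ library 2 or double-positive library 2, and 14 without double-positive library 3. It was 13 in the 5 shallower libraries alone. The 4 deeper libraries hold 1 double-positive and 1 col9a2+ library, so the 0 calls there (15 genes with an unadjusted p under 0.05 in edgeR) say nothing about stability. pycard, an inflammasome adaptor gene, fell by 3.87 (adjusted p = 0.00971), and without double-positive library 3 it fell by 4.61. The type I keratin gene krt97 fell by 3.71 (adjusted p = 0.0105), and without double-positive library 3 it fell by 4.40. The rise was that of col17a1b, a hemidesmosomal collagen gene, which rose by 4.93 ± 0.61 (adjusted p = 0.00445) with 188, 81.9 and 142 CPM in double-positive libraries, against 3.4, 3.82 and 6.25 CPM in col9a2+ libraries. Relative to entpd5a+ cells it was higher by 3.19 ± 0.56 (adjusted p = 0.0113), and the keratin gene krt94 was higher by 3.42 ± 0.50 (adjusted p = 0.00557), or by 4.03 without entpd5a+ library 3. The third rise in that comparison was that of ITGB4, the integrin beta-4 gene of hemidesmosomes, by 1.94 (adjusted p = 0.0197), a call lost without double-positive library 2 or entpd5a+ library 2 or 3 (adjusted p between 0.0597 and 0.075). The summed level of the list lay between 12056 and 15139.7 CPM in double-positive libraries, between 4426 and 9939 CPM in entpd5a+ libraries, and between 10108 and 13876 CPM in col9a2+ libraries. Most of that sum was krt4 and krt5, and krt4 was not low in double-positive libraries: it had 5645, 7856 and 6969.5 CPM in double-positive libraries, 1654, 2295 and 4517 CPM in entpd5a+ libraries, and 2188, 2319.9 and 3121 CPM in col9a2+ libraries. The median log2 CPM of the list, less affected by those keratins, was -0.11, 0.17 and 2.89 in double-positive libraries, 3.16, 4.49 and 4.10 in entpd5a+ libraries, and 3.79, 3.87 and 5.09 in col9a2+ libraries. None of the defining markers TP63, krt4, krt5 and cyt1 was at 0 in any library.

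Markers of the notochord sheath moved in both directions. Of 16 listed genes 13 matched, and their summed level lay between 34447 and 54638 CPM in double-positive libraries, between 7461 and 14506 CPM in entpd5a+ libraries, and between 23839 and 35330.5 CPM in col9a2+ libraries. The notochord factor gene tbxta had 1389, 2161 and 4465 CPM in double-positive libraries, 115, 209 and 805 CPM in entpd5a+ libraries, and 926, 1482 and 2147 CPM in col9a2+ libraries. The notochord gene cmn, which encodes the matrix protein calymmin, had 5054, 7715 and 7460 CPM in double-positive libraries, 225, 154 and 336 CPM in entpd5a+ libraries, and 1601, 3562 and 2707 CPM in col9a2+ libraries. cmn was 4.82 ± 0.58 higher (log2) in double-positive than in entpd5a+ cells (adjusted p = 0.00326) and fell by 3.46 ± 0.54 in entpd5a+ relative to col9a2+ cells (adjusted p = 0.007), and both calls were kept without each library in turn. tbxta did not pass any of the 3 tests. Of the 12 sheath genes tested, 4 rose and 1 fell in double-positive relative to col9a2+ cells, with a median log2 difference of 0.54. The test called 3.54% of all genes there. In entpd5a+ relative to col9a2+ cells 2 rose and 3 fell, with a median of -2.46, where the median of the 9 members was -2.11. For all genes the share called in that comparison was 5.02%. The fall in double-positive cells was that of COL9A1, a type IX collagen gene, with 9.31, 0.885 and 0.324 CPM in double-positive libraries, 109.8, 9.04 and 6.47 CPM in entpd5a+ libraries, and 523, 521 and 298 CPM in col9a2+ libraries. COL9A1 fell by 7.0 (adjusted p = 0.044), and with double-positive library 1 left out it fell by 9.55. That call was lost without entpd5a+ library 2, double-positive library 2 or 3 or any col9a2+ library (adjusted p between 0.0524 and 0.131). The matrix genes epyc and col9a1b were lower in double-positive than in col9a2+ libraries without overlap but did not pass the test, with log2 differences of -3.28 (adjusted p = 0.108) and -3.21 (adjusted p = 0.141). Sheath genes that rose in double-positive relative to col9a2+ cells included loxl5b, a lysyl oxidase-like gene, by 5.29 (adjusted p = 0.00525). With col9a2+ library 2 left out its difference was 5.89. The marker noto was at 0 in all 9 libraries, so tbxta and cmn and not noto carry the check of the labelled tissue.

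**Figure D4:**
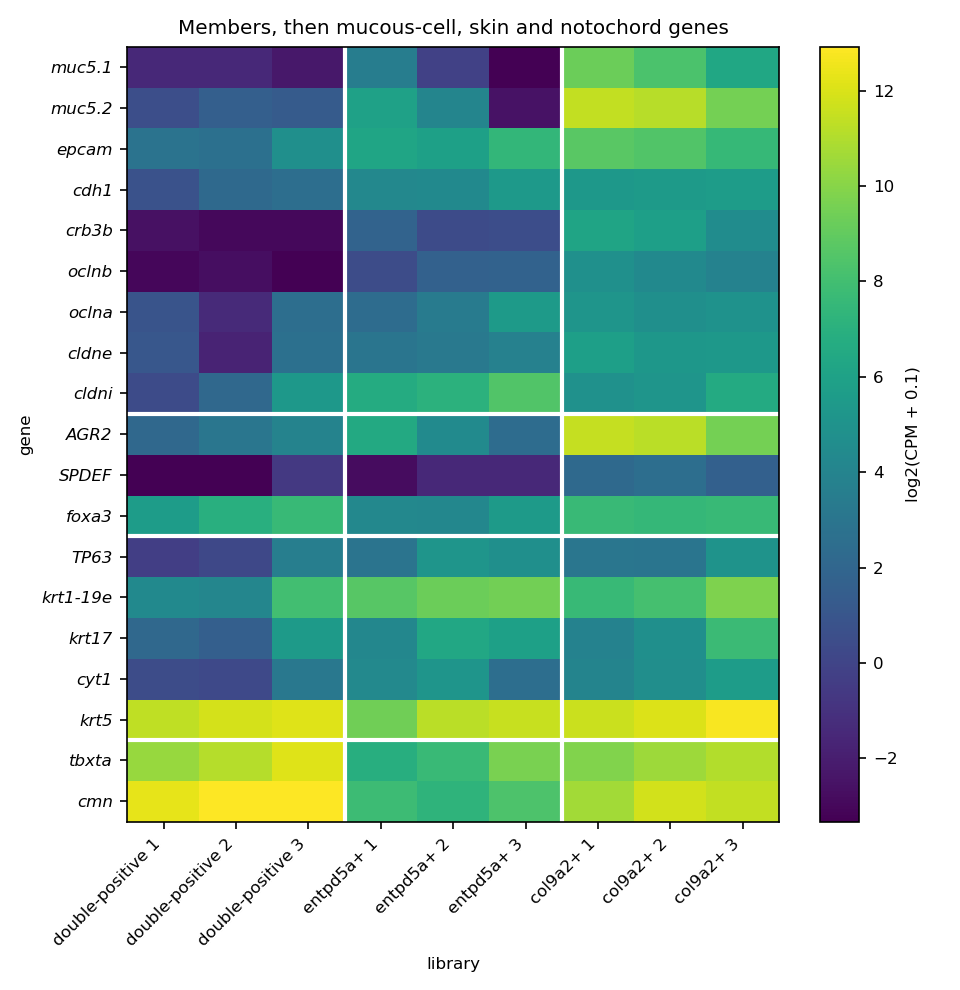
Log2(CPM + 0.1) of the 9 members (top block), then mucous-cell genes, skin genes and notochord genes, in the double-positive, entpd5a+ and col9a2+ libraries. AGR2 has the pattern of the mucin genes in the col9a2+ libraries, TP63 is lowest in double-positive libraries 1 and 2, and cmn is brightest in double-positive libraries.

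Other cell types gave few calls. No gene of the gut, liver and pancreas list (12 tested), the endothelial list (8 tested) or the leukocyte list (7 tested) was called in any of the 3 comparisons. Of all genes the test called between 3.54% and 6.51% in these comparisons, so few calls would be found in lists of this size. At an unadjusted p under 0.05 the gut, liver and pancreas list had 0 genes between double-positive and col9a2+ cells, 3 between double-positive and entpd5a+ cells and 2 between entpd5a+ and col9a2+ cells. The endothelial list had 0 in each comparison and the leukocyte list 1 in each. DESeq2 called 3 gut, liver and pancreas genes and 1 leukocyte gene between double-positive and entpd5a+ cells, and none in the other comparisons of these 3 lists. Of 9 ionocyte genes tested, CFTR, a chloride channel gene, was higher by 3.77 in double-positive than in entpd5a+ cells (adjusted p = 0.0083), and by 3.06 without double-positive library 3. Ionocyte genes as a list summed to between 100.4 and 288 CPM in double-positive libraries, between 28.1 and 78 CPM in entpd5a+ libraries, and between 20.02 and 87.5 CPM in col9a2+ libraries. CFTR alone made up 92.3, 86.8 and 261 CPM of the sums in double-positive libraries. Over the tested ionocyte genes the median log2 difference was -2.68 between double-positive and entpd5a+ cells and -0.61 between double-positive and col9a2+ cells. Of the 11 ionocyte genes 7 were highest in library 1 among the entpd5a+ libraries, the entpd5a+ library that also had the most muc5.2 and AGR2. That library also had the most COL9A2 of the entpd5a+ libraries, with 429 CPM against 73.1 and 64.7 CPM, and the most epyc and col9a1b. Of the 12 sheath genes with any count in entpd5a+ cells, 4 were highest in library 1 and 8 in library 3. What sets library 1 apart was not tested. The ionocyte factor gene foxi3b did not exceed 1.69 CPM, and the leukocyte gene ptprc did not exceed 2.48 CPM, in any library. FABP2, an intestinal lipid-binding protein gene, lay between 22.7 and 278 CPM. The trypsin gene prss1 varied widely within populations, with 271, 11.8 and 635 CPM in double-positive libraries, 28.5, 1123 and 443 CPM in entpd5a+ libraries, and 4.41, 123 and 589 CPM in col9a2+ libraries.

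Junction and polarity genes outside the members were drawn from 3 lists with 104 entries, of which 73 matched a name and 61 were tested. Between double-positive and col9a2+ cells 8 fell and 1 rose, a median log2 difference of -0.81 against 0.01 over all genes, where the test called 3.54% of all genes, 1.86% lower and 1.68% higher. The number called was 14 without double-positive library 3 and between 6 and 14 over all single omissions. It was 14 with the replicate block and 13 in the 5 shallower libraries alone. The 4 deeper libraries compare 1 double-positive with 1 col9a2+ library, so the 0 calls there (21 genes with an unadjusted p under 0.05 in edgeR) say nothing about stability. Between entpd5a+ and col9a2+ cells 6 fell and 2 rose, with a median of -0.63, where the test called 5.02% of all genes. Between double-positive and entpd5a+ cells 6 fell and 5 rose, with a median of -0.85 against -0.07 over all genes, where the test called 6.51% of all genes, 3.06% lower and 3.45% higher.

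The tight junction genes gave 7 of the 8 falls in double-positive relative to col9a2+ cells, out of 24 tested. cldn3c, a claudin gene, had 1.03, 2.55 and 2.65 CPM in double-positive libraries, 45.2, 19.1 and 8.71 CPM in entpd5a+ libraries, and 411, 362 and 123 CPM in col9a2+ libraries. It fell by 7.16 ± 0.84 in double-positive relative to col9a2+ cells (adjusted p = 0.00371), a call kept without each library in turn. In entpd5a+ relative to col9a2+ cells it fell by 3.62 ± 0.71 (adjusted p = 0.0189). With entpd5a+ library 1 left out it fell by 4.42. That call was lost without col9a2+ library 1 or 2 or entpd5a+ library 2 (adjusted p between 0.0584 and 0.0905). cldnf, which lies next to the member cldne in the RefSeq table, fell by 7.6 ± 1.1 in double-positive relative to col9a2+ cells (adjusted p = 0.00697), and without double-positive library 3 it fell by 9.92. The cingulin gene cgnb, whose product links tight junctions to actin, fell by 6.05 ± 0.87 (adjusted p = 0.00697), and without that library it fell by 6.70. The scaffold gene tjp1b went against the called claudins in double-positive cells. It was higher by 1.77 ± 0.27 there than in entpd5a+ cells (adjusted p = 0.00669), with 72.3, 85.9 and 77.3 CPM in double-positive libraries and 26.9, 24.2 and 18 CPM in entpd5a+ libraries. In col9a2+ libraries tjp1b had 49.8, 56.5 and 44.7 CPM, below double-positive libraries without overlap. That difference of 0.64 ± 0.27 did not pass the test (adjusted p = 0.267). In entpd5a+ relative to col9a2+ cells tjp1b fell by 1.13 ± 0.27 (adjusted p = 0.0428), a call lost without any one of the 9 libraries (adjusted p between 0.0535 and 0.189).

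Of 18 polarity genes tested outside the members, none fell and 1 rose between double-positive and col9a2+ cells, where 3.54% of all genes were called. Between double-positive and entpd5a+ cells 2 fell and 1 rose, where 6.51% of all genes were called. Between entpd5a+ and col9a2+ cells none fell and 2 rose, where 5.02% were called. Nothing is read from these small counts. The gene called between double-positive and col9a2+ cells was LIN7A, whose product sits in the Crumbs complex. It rose to 114, 173 and 116 CPM in double-positive libraries, against 5.5, 18.6 and 8.65 CPM in col9a2+ libraries, by 3.63 ± 0.51 (adjusted p = 0.00643). The difference was 4.25 with col9a2+ library 2 left out. Relative to entpd5a+ cells, with 7.43, 5.68 and 11.1 CPM, it was higher by 4.06 ± 0.52 in double-positive cells (adjusted p = 0.00349). LIN7A thus differed from crb3b in direction, with its highest levels where crb3b had 6 counts in all. crb3a, the paralog of crb3b, was under 1.5 CPM in every library and did not pass any test.

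Genes of adherens junctions and desmosomes, 19 of them tested, had 1 fall and 0 rises between double-positive and col9a2+ cells, where 3.54% of all genes were called. Between double-positive and entpd5a+ cells 3 rose and none fell, where 6.51% were called. Between entpd5a+ and col9a2+ cells 2 fell and none rose, where 5.02% were called. Nothing is read from these small counts. The fall between double-positive and col9a2+ cells was that of the periplakin gene PPL, which is also in the skin list. PPL fell by 4.25 ± 0.81 (adjusted p = 0.0205), and without double-positive library 3 it fell by 5.83. The call was lost without double-positive library 2 or any col9a2+ library (adjusted p between 0.0575 and 0.0676). The desmosomal plakophilin gene pkp3a was higher in double-positive than in entpd5a+ cells by 3.14 ± 0.48 (adjusted p = 0.00669), with 650.5, 1158 and 1132 CPM in double-positive libraries, 59.6, 129.7 and 143 CPM in entpd5a+ libraries, and 287, 455 and 484 CPM in col9a2+ libraries. This plakophilin was thus most abundant in the population where cdh1 was least abundant.

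Transcription factors of epithelia (14 tested) gave 5 falls and no rise in double-positive relative to col9a2+ cells, with a median log2 difference of -3.17, or -2.83 with genes at 0 placed at their bound. In that comparison 3.54% of all genes were called, 1.86% lower. GRHL2 is here the paralog grhl2b, of a grainyhead factor that in mouse activates cdh1 and claudin genes. It had 0 counts in every double-positive library, 1.19, 0.601 and 0.531 CPM in entpd5a+ libraries, and 1.91, 3.85 and 3.91 CPM in col9a2+ libraries. Against 3 counts over the double-positive libraries, it was at least 169-fold lower there than in col9a2+ cells (adjusted p = 0.0102) and at least 35.8-fold lower than in entpd5a+ cells (adjusted p = 0.0128). The other paralog, grhl2a, was not at 0 in double-positive libraries, with 0.336, 0.13 and 0.236 CPM. In col9a2+ libraries grhl2a had 4.63, 3.05 and 8.66 CPM, and it fell by 4.53 ± 1.05 in double-positive relative to col9a2+ cells (adjusted p = 0.0461). Between entpd5a+ and col9a2+ cells none of the 14 was called, 1 had an unadjusted p under 0.05, and DESeq2 called 0. There edgeR called 5.02% of all genes.

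Factors of the epithelial-mesenchymal transition, with the N-cadherin gene CDH2 (10 genes tested), gave 3 rises and no fall in entpd5a+ relative to col9a2+ cells, with a median log2 difference of 1.97. In that comparison 5.02% of all genes were called, 2.68% higher. The repressor gene snai1a, whose mouse counterpart represses the E-cadherin gene, had 66.6, 112 and 154 CPM in entpd5a+ libraries, against a mean of 13.0 ± 6.07 CPM in col9a2+ libraries (SD, n = 3), without overlap. It rose by 3.09 ± 0.61 (adjusted p = 0.0188), a call lost without col9a2+ library 2 or 3 or entpd5a+ library 2 or 3 (adjusted p between 0.0532 and 0.102). In double-positive libraries snai1a had 16, 3.36 and 11.9 CPM and fell by 3.41 ± 0.62 relative to entpd5a+ cells (adjusted p = 0.0122). Between double-positive and col9a2+ cells edgeR called 0 of the 10, 2 had an unadjusted p under 0.05, and DESeq2 called 1. There edgeR called 3.54% of all genes. CDH2 was higher by 2.01 ± 0.36 in double-positive than in entpd5a+ cells (adjusted p = 0.011), with 305, 371 and 460.4 CPM in double-positive libraries, 73, 89.1 and 119.8 CPM in entpd5a+ libraries, and 169, 263 and 227 CPM in col9a2+ libraries. That call was lost without entpd5a+ library 2, where the difference was 1.97 (adjusted p = 0.0525).

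**Figure D5:**
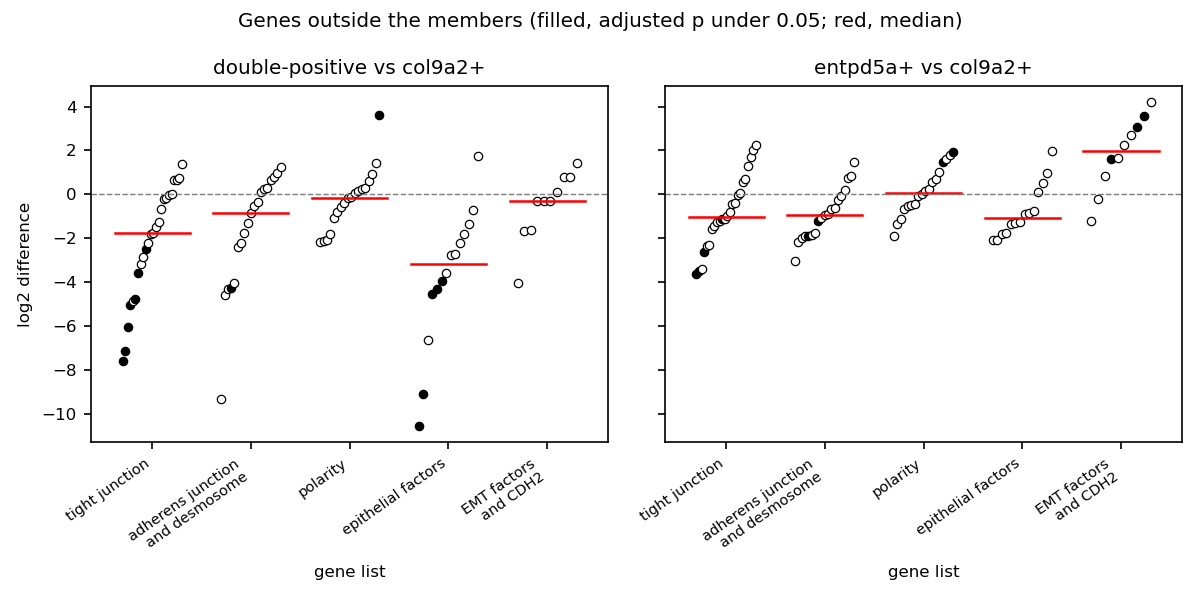
Log2 differences of genes outside the members by list, for double-positive minus col9a2+ cells (left) and entpd5a+ minus col9a2+ cells (right), with filled symbols at an adjusted p under 0.05 and a red line at the list median. Tight junction genes and epithelial factors hold most of the falls at the left, and LIN7A is the filled rise of the polarity list; values of genes at 0 in double-positive libraries, GRHL2 among them, depend on the fit's prior count.

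The genes outside the members most like them were found by Pearson's r with the mean of the 9 members' centred log2 CPM over the 9 libraries, a description that a common difference between populations alone can make high. Of 8054 named genes that averaged 10 CPM or more, 103 had an r of 0.9 or more. The first was ptgdsb.1, a prostaglandin D synthase gene, with r = 0.990 and 34.0, 29.7 and 89.5 CPM in double-positive libraries, 425, 271 and 275 CPM in entpd5a+ libraries, and 1314, 1640.4 and 974 CPM in col9a2+ libraries. Next came the carbonyl reductase gene cbr1l with r = 0.988, and CTHRC1 and BHMT with r = 0.986 each. CTHRC1, a secreted collagen-triple-helix protein gene, had 0.0671, 0.156 and 0.619 CPM in double-positive libraries, 10.1, 1.87 and 2.52 CPM in entpd5a+ libraries, and 67.0, 61.1 and 39.1 CPM in col9a2+ libraries. The others of the first 10 were cldn3c, TAT, tmsb1, HGD, NID2 and prdx1, with r between 0.965 and 0.982. Of these 10 genes cldn3c alone encodes a junction protein, and TAT, HGD and BHMT encode enzymes of amino acid metabolism.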

How the data were processed

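RNA was prepared from cells sorted by fluorescence, and ultra-low-input cDNA libraries were made, per the labels' protocols. The authors deposited a raw read count for each Ensembl gene ID. The tools were HISAT2 and HTSeq and the build was GRCz10, per the submitters' processing notes; versions and strand setting are not given in the sources used here. Of 32266 IDs, 26433 (81.9%) had a gene name, some in capitals without the paralog letter.

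Counts were analysed with edgeR 4.0.16 in R 4.3.3: filterByExpr on the populations, TMM factors, and a robust quasi-likelihood fit of all 9 libraries with population as the only term. F tests were two-sided. Standard errors are the absolute log2 difference divided by the square root of F. The fit was tested on simulated data, with 50 changed genes at each size of change. The changed genes came from those above a minimum mean level, and the spread was that of the trend over genes. Between entpd5a+ and col9a2+ cells it recovered 2% of the genes given a 2-fold change. The share was 32% when the change was 4-fold, 86% when it was 8-fold and 92% when it was 16-fold. For double-positive cells the share at 4-fold was 32% against col9a2+ cells and 34% against entpd5a+ cells. Changes of 4-fold or less would thus mostly be missed, so a failed test does not show equal levels. These shares need not hold for genes of wide spread, such as muc5.1 and muc5.2 (standard errors 1.77 and 1.63 between entpd5a+ and col9a2+ cells). The log2 CPM values behind list medians and profiles use a prior count of 2, CPM values none. Floors of 3 counts (0.0343 to 0.078 CPM per library) and exact intervals cover counting error only. CPM values are not scaled to transcript length, so levels were compared within genes.

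The 9 members and the 12 gene lists were chosen with earlier results of these data known. Of 250 entries, 199 matched, members included. Named are all members, up to 4 called genes of each list in each comparison, ranked by adjusted p, with at least 1 for each direction called, the defining markers in the lists, the sort genes, and the 10 most similar genes. krt1-19e, icn, noto, prss1, crb3a and grhl2a were named, and krt17 plotted, after their values were seen. Libraries of a population correlated at r = 0.818 to 0.904 across genes and none were identical. Deviations from the population means of same-numbered double-positive and col9a2+ libraries correlated at r = 0.18, 0.22 and 0.33, so the numbers were taken to pair these samples, from the data and not from the labels. The fit reported has no term for this pairing, and the replicate block is given as an alternative. Alternatives were RLE factors, no count filter, DESeq2 1.42.0, replicate number as a block, a term for depth, the 6 libraries compared, each library left out, and, added later, each depth group alone. Sequences are not shown here. A gene that the naming rule covers is not reported here.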

Additional observations from a re-analysis of the deposited data

How the results depend on the processing

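No difference of a member, or of a gene named because it was called, reversed its direction under the alternatives run; the other markers were not refitted gene by gene. With DESeq2 the counts of called genes were 2026 between double-positive and col9a2+ cells, 2874 between double-positive and entpd5a+ cells and 2159 between entpd5a+ and col9a2+ cells, against 674, 1240 and 955 in the fit reported. It called 4 members between entpd5a+ and col9a2+ cells (muc5.1, muc5.2, crb3b and oclnb), 22 other junction and polarity genes and 15 skin genes between double-positive and col9a2+ cells, against 2, 9 and 7. With a term for depth these were 1314 genes between double-positive and col9a2+ cells, 17 other junction and polarity genes and 17 skin genes. In the 4 deeper libraries alone the counts were 0 between double-positive and col9a2+ cells, 0 between double-positive and entpd5a+ cells and 39 between entpd5a+ and col9a2+ cells, with 0 members, 0 other junction and polarity genes and 0 skin genes. At an unadjusted p under 0.05 edgeR there counted 2386, 3330 and 2636 genes, 5 members, 21 junction and polarity genes and 15 skin genes. In the 5 shallower libraries alone 455 genes were called between double-positive and entpd5a+ cells, 202 between entpd5a+ and col9a2+ cells, 4 members and 13 skin genes. Both depth groups alone were chosen after seeing the data. The deeper group has 1 double-positive and 1 col9a2+ library and the shallower group 1 entpd5a+ library, so missed calls there say nothing about stability. A fit of only the 6 libraries compared called 758 genes between double-positive and entpd5a+ cells. Leaving out each library in turn gave 353 to 994 genes between entpd5a+ and col9a2+ cells, 242 to 787 between double-positive and col9a2+ cells and 525 to 1064 between double-positive and entpd5a+ cells, with 1 to 3 members, 6 to 14 other junction and polarity genes and 4 to 14 skin genes. RLE factors and no count filter kept every one of these 6 counts within 1.5 times. Deviations of same-numbered libraries correlated at 0.21, -0.11 and 0.20 between entpd5a+ and col9a2+ and at 0.13, -0.10 and 0.15 between double-positive and entpd5a+ libraries. Different-numbered libraries reached 0.23 and 0.20 in these comparisons, in that order. The values thus do not settle whether the numbers pair the samples there. With the replicate block 1024 genes were called between double-positive and col9a2+ cells, with 14 other junction and polarity genes and 11 skin genes, and of the genes named there because they were called the factor gene ovol1b alone lost its call. Between entpd5a+ and col9a2+ cells the block gave 4 members, with adjusted p = 0.013 for muc5.1 and 0.0438 for muc5.2. Members with a few counts in double-positive cells are limited by depth there.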
